A study of Homo sapiens with 4 samples.

Results

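Chromosome 2 is covered by 2531 of the 27704 bins of 80 kb in the deposited table of replication states, and all bins with that chromosome number were taken, 1088 on the short arm and 1443 on the long arm. Together they span 202.48 Mb of sequence. A bin is coded for each cell as replicated or unreplicated. The cells were compared at matched S-phase progress, which is the percent of a cell's called autosomal bins that were coded as replicated.

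The parental line was HCT116, derived from a human colorectal cancer. DKO1 was made from it by knocking out DNMT1 and DNMT3B, and the labels name no further treatment of either line. DNMT1 restores methylation on new DNA strands after replication, and DNMT3B also sets it at sites that had none. Each line is represented by 1 library of sorted S-phase cells, pooled from early, mid and late fractions, with 322 HCT116 and 207 DKO1 cells. DKO1 is a single derived line, so that the knockouts and any other trait of that line cannot be told apart, and no test between the lines was possible.

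In dividing cells the genome is copied in a set order, in neighbouring stretches of DNA that fire their origins at similar times. Such timing domains are often about the size of a megabase. Early domains tend to be rich in genes and open chromatin, and late domains tend to be gene-poor, to lie at the nuclear lamina and to lose DNA methylation in many cancers. Single-cell replication sequencing reads this order from copy number, because a stretch that has been copied yields more DNA than one that has not.

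Median progress was 52.7% for HCT116, with quartiles of 39.5 and 63.1%, and 48.8% for DKO1, with quartiles of 39.97 and 59.6%. The 2 libraries shared 0 cell barcodes. The codes carry no key in the table. Bins with code 2 were taken to be replicated and those with code 1 to be unreplicated, since chromosomes richer in protein-coding genes had more of code 2 (rho over 21 chromosomes 0.845 for HCT116 and 0.855 for DKO1, with gene densities of the GRCh38.p14 table). Code 0 was treated as not called. It took 0.874% of the calls on chromosome 2 in HCT116 and 3.42% in DKO1, and every bin of the chromosome was called in at least 95.3% of HCT116 and 90.8% of DKO1 cells. Values are given as the standardised share, the percent of cells in which a bin was replicated, averaged with equal weight over 6 strata of 10 points of progress from 20 to 80%. The lowest and the highest stratum held only 11 and 10 DKO1 cells, against 33 and 19 HCT116 cells. Cells at 40 to 60% progress are called mid-S below. Their median progress was 51.8% in HCT116 and 49.7% in DKO1, and counts of mid-S cells were not matched further. Coordinates are those of the deposited table. The submitters' processing notes name hg19 and GRCh37, no annotation of that build was used here, and regions are therefore named by position and not by gene.

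Chromosome 2 alternated between early and late stretches wherever it had bins, and this order was largely shared by the lines. The table has no bin between 220960000 and 240000001, a gap of 19.04 Mb. Values for the long arm therefore leave out that stretch. On the side of 50% of the mean of both lines' shares, with runs under 5 bins joined to their neighbours, the bins fell into 70 domains, 36 early and 34 late, and 3 isolated bins stayed outside. Early domains had a median length of 2.08 Mb (range 0.4 to 7.44) and late domains of 2.52 Mb (range 0.4 to 12). On the short arm the pattern was coarse, with 12 early and 11 late domains of median length 3.04 and 2.96 Mb. The long arm was cut more finely, into 24 early and 23 late domains with medians of 1.6 and 2.16 Mb. Across the 2531 bins the shares of the lines had a Pearson correlation of 0.960 and a rank correlation of 0.943, a description over neighbouring bins that are not independent.

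**Figure D1:**
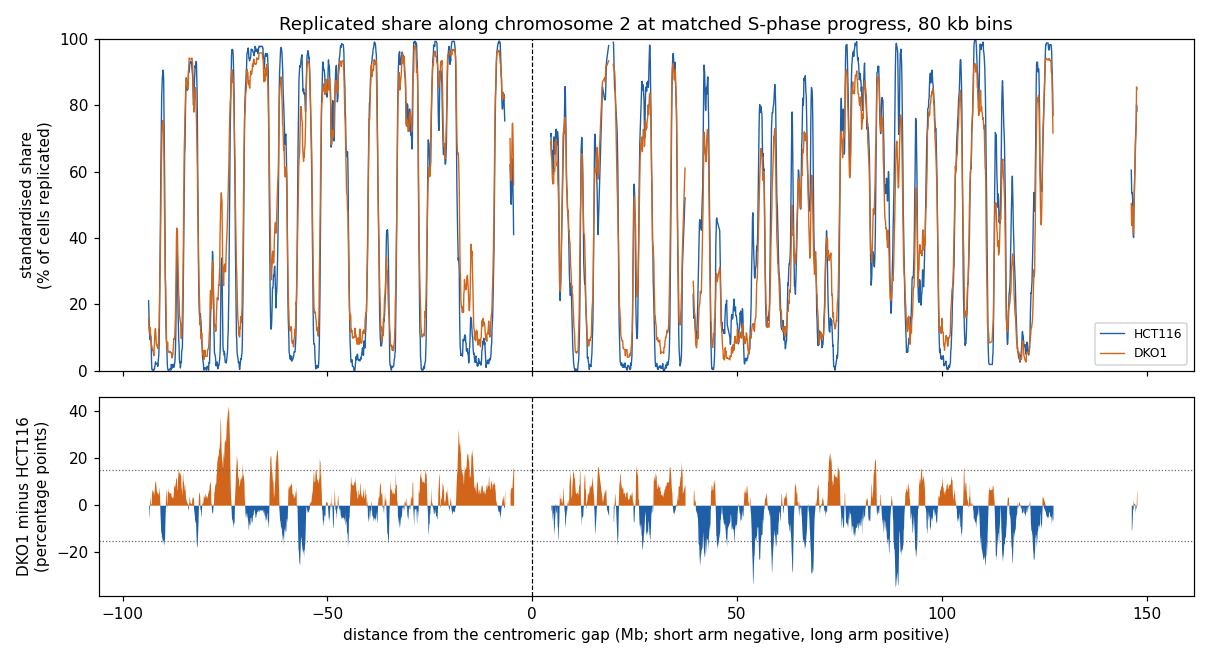
Standardised share of each 80 kb bin of chromosome 2 in HCT116 and DKO1 (upper panel, percent of cells replicated) and the difference DKO1 minus HCT116 in percentage points (lower panel), against distance from the centromeric gap in Mb. Orange areas are bins higher in DKO1, blue areas bins lower, and dotted lines mark 15 points. Positive differences are frequent on the short arm, and the deepest negative ones lie on the long arm, where bins reached -34.7 points.

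Domains are ranked here by the mean of both lines' shares. The earliest domain of the short arm ran from 23360001 to 29680000. It had a share of 92.4% in HCT116 and 88.8% in DKO1, and most of it was replicated in 135 of 137 HCT116 and 98 of 102 DKO1 cells at 40 to 60% progress. The next earliest of that arm, from 84480001 to 87120000 and then from 53680001 to 56160000, had 86.97 and 87.7% and 86.8 and 83.1%. On the long arm the earliest by this mean, though not in the order of HCT116 alone, lay from 127600001 to 129200000 (82.3 and 83.1%), from 200640001 to 204640000 (87.8 and 77.5%) and from 216560001 to 220960000 (84.8 and 78.4%). These domains thus had high shares in both lines, while 2 of the long-arm ones were over 6 points lower in DKO1. Among almost fully called cells (code 0 in no more than 1% of their bins, strata from 30 to 70% only) these 2 differed by -3.73 and -1.36 points, against -7.96 and -3.93 in all cells of the same strata, and the domain from 23360001 turned to 1.35 points, against -1.94.

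The latest domain of the short arm was its first one, from 80001 to 3040000, with a share of 7.50% in HCT116 and 11.5% in DKO1. Most of it was replicated in 1 of 136 HCT116 and 2 of 92 DKO1 mid-S cells. The domains from 48800001 to 53680000 (9.34 and 14.2%) and from 4080001 to 8720000 (9.38 and 17.0%) followed by the mean of both lines, while in HCT116 alone the domain from 75680001 to 84480000, with 8.01%, came before them. On the long arm the domain from 123040001 to 127600000 had the lowest share of the chromosome in HCT116, with 6.64%, against 15.1% in DKO1. The domain from 192640001 to 196960000 had 10.4 and 17.4%. The 3rd latest of the long arm by the mean of both lines, from 137040001 to 149040000, was lower in DKO1 (18.1 and 12.4%). The other late domains given here were somewhat higher in DKO1, but 2 of the differences were not stable in sign. In the almost fully called cells the first domain differed by 0.0412 points and the domain from 48800001 by -0.435, and with cells matched by the replicated percent of the arm's own bins (progress of the arm itself, which takes out each arm's mean difference) they differed by -0.570 and -1.85. The domain from 192640001 differed by 2.65 points in the almost fully called cells, against 5.70 in all cells of the same strata. The domain from 4080001 differed by 7.59 points, and by 2.22 when matched by the progress of the arm itself. The domain from 123040001 differed by 8.47 points, by 4.90 with code 0 taken as unreplicated and by 4.97 in all cells at 30 to 70% progress.

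The longest late domain went the other way. It covered 12 Mb of the long arm, from 137040001 to 149040000, and had a share of 18.1% in HCT116 and 12.4% in DKO1. Its counterpart on the short arm, 8.80 Mb from 75680001 to 84480000, had 8.01% in HCT116 and 20.2% in DKO1. The longest late domains of the 2 arms therefore differed in which line had the higher mean share of their bins. Few mid-S cells of either line had copied most of them. On the long arm it was 0 of 138 HCT116 and 3 of 101 DKO1 cells, and on the short arm 1 of 135 and 3 of 101. The longest early domains were of like size, 7.44 Mb from 68240001 to 75680000 (82.9 and 84.7%) and 7.36 Mb from 168880001 to 176240000 (83.4 and 77.4%). The last of these differed by -0.0620 points in the almost fully called cells, against -4.21 in all cells of the same strata.

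The 2 arms differed between the lines in opposite directions. Averaged over its bins, the short arm had a share of 47.5% for HCT116 and 50.9% for DKO1 (DKO1 minus HCT116, 3.39 points). The long arm had 43.7 and 40.8% (-2.95 points). Over the whole chromosome these nearly cancelled, with 45.4 and 45.1% (-0.226 points). The short arm was higher in DKO1 in 5 of 6 strata of progress and the long arm in 0 of 6. By 20 Mb windows, of which 121 on all autosomes held at least 100 bins, the window from 0 to 20 Mb of chromosome 2 differed by 6.55 points, the 5th highest of all, and the window from 60 to 80 Mb by 5.20. At the other end, the window from 200 to 220 Mb differed by -7.65 points, 2nd from the lowest, and the window from 140 to 160 Mb by -6.70, 4th from the lowest. All windows of the genome ran from -9.85 to 10.5 points with a median of 0.515. Windows of both signs were not particular to chromosome 2. On chromosome 3 the difference was 10.5 points from 0 to 20 Mb and -5.61 from 180 to 200 Mb. Among the 246 HCT116 and 82 DKO1 almost fully called cells the arms differed by 3.94 and -0.697 points, against 3.04 and -2.12 in all cells of those strata. Code 0 took 3.89% of DKO1 calls on the short arm and 3.06% on the long arm, and 0.929 and 0.832% in HCT116; its part in the arm differences beyond this was not tested.

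The time course of the arms differed between the lines. In HCT116 the short arm led early and was overtaken. It had replicated 29.97% at 20 to 30% progress against 17.97% of the long arm, 52.4 against 49.1% at 50 to 60%, and 57.0 against 60.8% at 60 to 70%. In DKO1 the short arm stayed ahead throughout, with 29.2 against 13.9% in the first of these strata, 53.6 against 45.1% in the second and 64.7 against 57.3% in the third. In single cells at 60 to 70% progress the short arm was ahead in 24 of 80 HCT116 cells, or 30% with an exact binomial 95% interval of 20.3 to 41.3%. In DKO1 it was ahead in 34 of 38 cells (89.5%, 75.2 to 97.1%). The median gap, short minus long arm, was -2.62 points in these HCT116 cells (quartiles -5.79 and 0.420) and 4.09 points in these DKO1 cells (quartiles 1.84 and 8.87). At 70 to 80% the short arm was ahead in 1 of 19 HCT116 and 7 of 9 DKO1 cells. Before 50% progress it led in nearly every cell of both lines, in 57 of 58 HCT116 and 48 of 51 DKO1 cells at 40 to 50%. These intervals, here and below, cover counting error of cells only and not the variation between cultures.

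**Figure D2:**
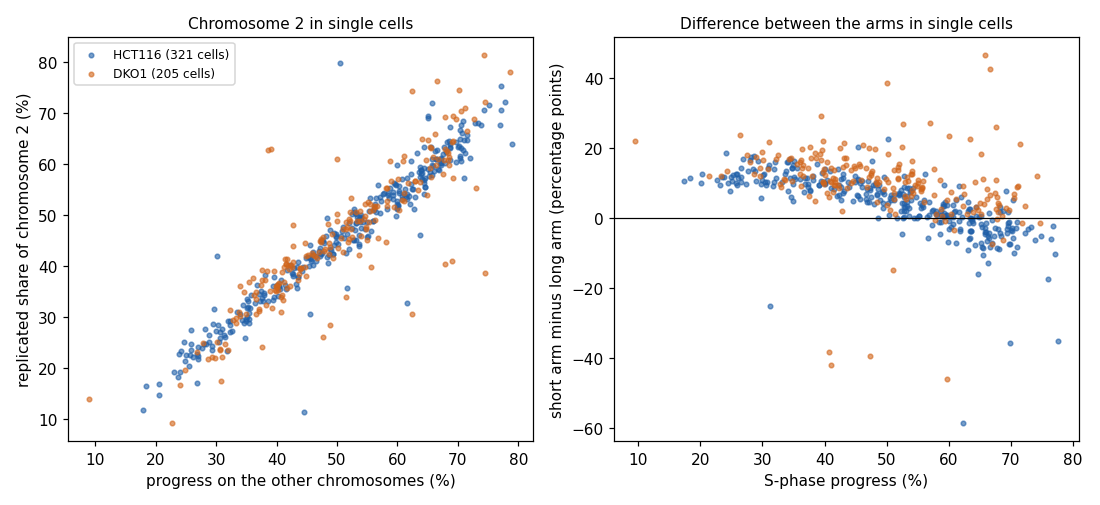
Left, replicated share of chromosome 2 (percent) against progress on the other chromosomes (percent), 1 point per cell, for 321 HCT116 and 205 DKO1 cells. Right, share of the short arm minus share of the long arm (percentage points) against S-phase progress. Most HCT116 cells lie below 0 on the right panel at 60 to 70% progress (median -2.62 points) and most DKO1 cells above it (median 4.09 points), and single cells lie far from both clouds.

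Within the domains, late ones were on average higher in DKO1 and early ones lower. Bins of late domains had a mean share of 16.6% for HCT116 and 20.6% for DKO1, 3.93 points more. Bins of early domains had 81.4 and 75.97%, a difference of -5.47 points. Restricted to the almost fully called cells the early difference was -1.40 points, against -4.32 in all cells of the same strata, and the late difference 3.55 against 3.74. The arms contributed unequally. All 11 late domains of the short arm were higher in DKO1, by 2.38 to 15.7 points, and their bins differed by 9.08 points on average. Late domains of the long arm were split, 12 higher and 11 lower, with a mean of 0.654 points over their bins. Early domains of the long arm were lower in 21 of 24, with a mean difference of -8.31 points over their bins, and early domains of the short arm in 8 of 12, with -2.41 points.

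The long arm itself was not uniform. From 98240001 to 131120000, the part next to the centromere, all 6 late domains were higher in DKO1 (by 1.59 to 10.2 points), as on the short arm, and 5 of 7 early domains were lower. From 133040001 to 220960000 all 16 early domains were lower in DKO1, with differences from -26.7 to -1.98 points, and 10 of 16 late domains were lower too. Over all bins of that stretch the share was 45.6% for HCT116 and 40.7% for DKO1 (-4.88 points) and lower in DKO1 in each of the 6 strata. The difference was -1.59 points in the almost fully called cells, against -3.30 in all cells of the same strata. The stretch holds 1066 of the 2531 bins of the chromosome and 16 of the 19 regions of lower share described below.

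**Figure D3:**
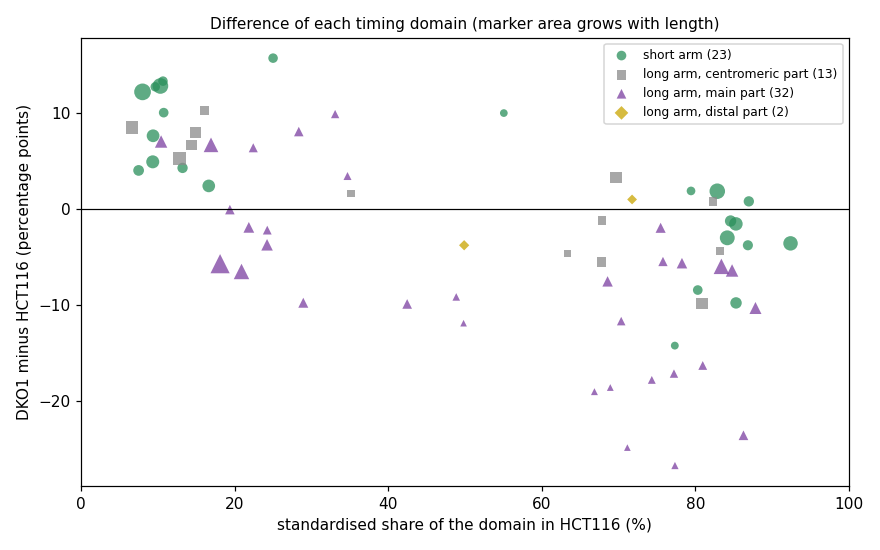
Difference in standardised share of each of the 70 domains (DKO1 minus HCT116, percentage points) against its share in HCT116 (percent), with marker area growing with length and the stretches of the chromosome in colours. All 11 late domains of the short arm lie above 0, and all 16 early domains of the main part of the long arm lie below it.

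The domains with the largest positive differences on the short arm were those from 29680001 to 31760000, with shares of 25.01% in HCT116 and 40.7% in DKO1, from 21280001 to 23360000 (10.7 and 23.9%), and the long one from 12160001 to 19760000 (10.3 and 23.1%). On the long arm they were smaller, from 129200001 to 131120000 (16.1 and 26.3%), from 176240001 to 177520000 (33.1 and 42.9%) and the late domain from 123040001 given above. Matched by the progress of the arm itself, the 3 short-arm domains differed by 8.48, 5.74 and 6.96 points, and the longest late domain of that arm by 5.50 points. In the 7.60 Mb domain from 12160001 to 19760000, 6.62% of mid-S HCT116 cells and 35.8% of DKO1 cells were in the middle of replicating it, with 20 to 80% of its bins copied. Most of it was copied in 1 of 136 HCT116 and 3 of 95 DKO1 mid-S cells.

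The largest negative differences were in early domains of the long arm. The 0.72 Mb domain from 161680001 to 162400000 had a share of 77.4% in HCT116 and 50.7% in DKO1. Most of it was replicated in 123 of 136 HCT116 and 60 of 103 DKO1 mid-S cells. The 0.4 Mb domain from 157040001 to 157440000 had 71.2 and 46.3%, and the 2.16 Mb domain from 182160001 to 184320000 had 86.3 and 62.7%. Matched by the progress of the arm itself, the last differed by -14.9 points. On the short arm the largest was the 1.04 Mb domain from 3040001 to 4080000, with 77.3 and 63.1%. It was followed by the domains from 36560001 to 40080000 (85.3 and 75.5%) and from 31760001 to 33920000 (80.3 and 71.9%). The same 3 differed in the almost fully called cells by -6.32, -3.86 and -3.63 points, against -13.5, -8.94 and -6.89 in all cells of the same strata.

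At the level of bins, 217 of 2531 (8.57%) were at least 15 points lower in DKO1, where 7.39% of all autosomal bins were, and 140 (5.53%) were at least 15 points higher, where 6.90% were. The chromosome as a whole was thus close to the background in both directions, with the excess divided by arm. On the short arm 2.94% of bins were lower and 9.65% higher by this size, and on the long arm 12.8% were lower and 2.43% higher. Runs of at least 5 such bins made 29 regions, 19 lower and 10 higher in DKO1. Of the lower ones 17 lay on the long arm, 16 of them past 133040001, and of the higher ones 8 lay on the short arm. Of the 2531 bins 1443 lie on the long arm and 1088 on the short arm. When cells were matched by the progress of the arm itself, the same rule gave 26 regions, which need not be the same ones. With 9 of 15 lower regions on the long arm and 5 of 11 higher regions on the short arm, they were divided between the arms about as the bins are. This alternative, like the one with only the strata from 30 to 70% (12 of 14 and 10 of 16), was chosen after seeing the data.

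The region highest in rank among those replicated in more DKO1 cells was 2.40 Mb long, from 16720001 to 19120000. It was very late in HCT116, with a share of 8.78%, and reached 33.3% in DKO1. At 20 to 30, 30 to 40, 40 to 50, 50 to 60, 60 to 70 and 70 to 80% progress, most of it was replicated in 0 of 33, 0 of 48, 1 of 58, 2 of 78, 2 of 78 and 1 of 18 HCT116 cells. In DKO1 the counts were 0 of 10, 1 of 38, 4 of 49, 15 of 49, 19 of 38 and 8 of 10. Before 40% progress at most 1 cell of either line had copied most of it, and from 50% on the exact intervals did not overlap, with 2.56% against 30.6% at 50 to 60%. The region was chosen for its difference in these same cells, so the gap between intervals is a description and no support. Code 0 was also more frequent here, with 6.3% of DKO1 and 2.1% of HCT116 calls, and its part in the difference was not tested.

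Just beyond it, from 19280001 to 20000000 across the border with the next early domain, lay the region with the largest mean difference. Shares were 24.5% for HCT116 and 59.4% for DKO1, and single bins differed by up to 42.2 points. Mid-S cells had copied most of it in 17 of 136 cases in HCT116 (12.5%, interval 7.45 to 19.3%) and in 71 of 99 in DKO1 (71.7%, 61.8 to 80.3%). On a logistic curve of the region's share on progress, 50% was passed at a progress of 67.3% in HCT116 and 42.9% in DKO1. Together with the region before it and the one from 21360001 to 21840000 (12.99 and 31.4%), it formed a group of higher regions on the distal short arm.

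A second group lay around the start of the longest late domain of the short arm. The stretch from 75440001 to 76480000 had a share of 23.8% for HCT116 and 47.9% for DKO1. At 50 to 60% progress 24 of 78 HCT116 and 32 of 51 DKO1 cells had copied most of it, and at 60 to 70% 33 of 81 and 35 of 38. Deeper in the same domain lay the regions from 77440001 to 78320000 (6.32 and 25.4%) and from 78720001 to 79360000 (12.6 and 33.0%). The first of these was mostly replicated in 0 of 136 mid-S HCT116 cells, which allows up to 2.68% by the exact interval, and in 15 of 101 DKO1 cells.

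The remaining higher regions were at both ends of the short-arm late domain from 29680001 to 31760000, namely from 30960001 to 31760000 (27.8 and 48.2%) and from 29680001 to 30080000 (19.8 and 39.7%), and on the long arm from 166000001 to 166800000 (14.6 and 34.5%) and from 177200001 to 177680000 (38.0 and 55.98%). In all, 8 of the 10 had a share under 25% in HCT116, and 9 were higher in DKO1 in each of the 6 strata. The exception was the region from 21360001 to 21840000, higher in 5. Of their bins 99 lay in late and 8 in early domains, where the chromosome has 1407 late and 1121 early bins. A bin with a very high share in HCT116 cannot be 15 points higher in DKO1. The rule itself therefore shapes this split, and its part was not tested. For all 10, and for 18 of the 19 lower regions described below, the exact intervals of mid-S cells did not overlap between the lines. The share of all domains or bins with intervals apart is not given here, so these counts have no background. The regions were chosen for their difference in these same cells and strata, so this and the counts of strata are a description and no support.

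**Figure D4:**
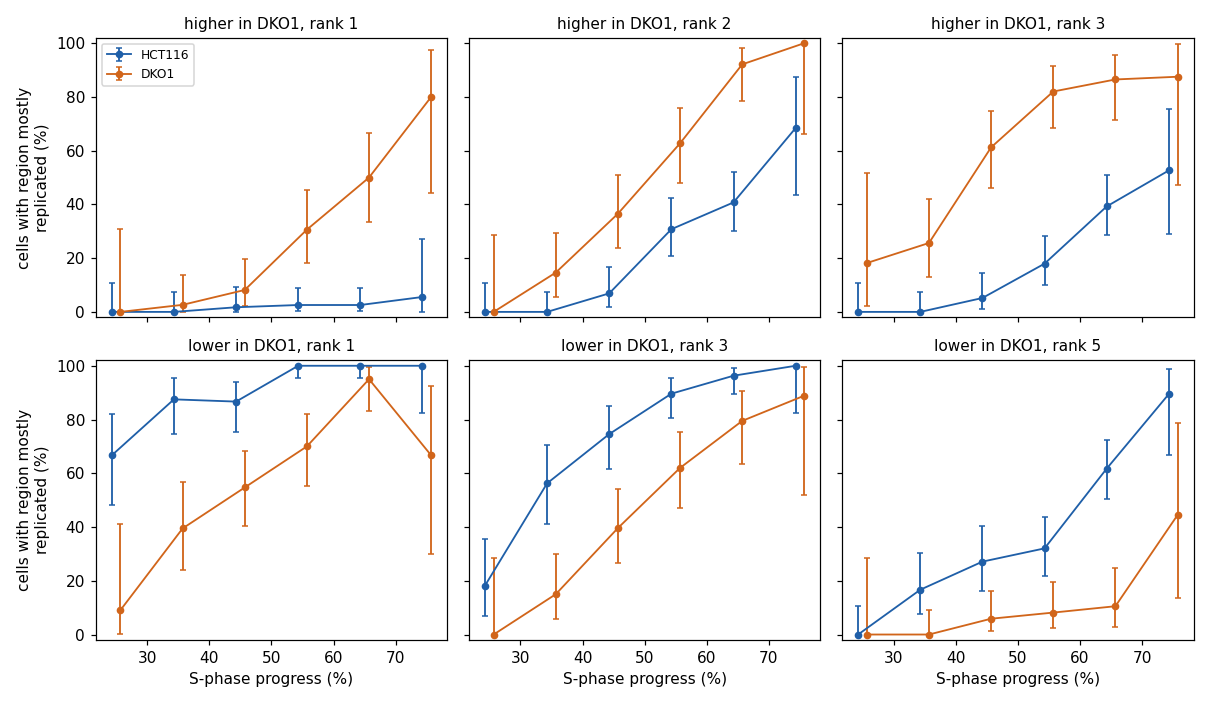
Percent of cells in which most of a region was replicated, by stratum of S-phase progress (percent), for HCT116 and DKO1, with exact binomial 95% intervals. The upper panels show the regions ranked 1 to 3 among those higher in DKO1 (from 16720001, 75440001 and 19280001), and the lower panels those ranked 1, 3 and 5 among those lower (from 181920001, 161520001 and 147280001). In the first upper panel HCT116 stays at or below 5.6% in all strata while DKO1 reaches 80%.

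Among the regions lower in DKO1, the first by summed difference spanned 1.36 Mb from 181920001 to 183280000 and the start of an early domain. Its share was 81.6% in HCT116 and 54.3% in DKO1. In the 6 strata, in order of progress, most of it was replicated in 22 of 33, 42 of 48, 52 of 60, 76 of 76, 80 of 80 and 19 of 19 HCT116 cells. The DKO1 counts were 1 of 11, 15 of 38, 29 of 53, 35 of 50, 38 of 40 and 6 of 9. At 50 to 60% progress the share of its bins was 91.4% for HCT116 and 63.7% for DKO1, and 30.1% of HCT116 and 53.4% of DKO1 mid-S cells had copied it only in part. The curve on progress passed 50% at 26.1% in HCT116 and 44.1% in DKO1. Its neighbour from 183520001 to 184320000 had 86.7 and 67.8%.

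On the edge of the early domain from 200640001 to 204640000, the region from 203280001 to 204480000 had a share of 94.96% in HCT116 and 73.5% in DKO1, the highest HCT116 share of all 29 regions. In the almost fully called cells it differed by -13.5 points, against -15.5 in all cells of the same strata. The region from 161520001 to 162480000, which holds the small early domain named above, had 71.1 and 46.8%. Most of it was replicated in 27 of 48 HCT116 and 6 of 40 DKO1 cells at 30 to 40% progress, and in 69 of 77 and 31 of 50 at 50 to 60%.

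Some other losses lay wholly in late domains. Inside the longest late domain lay the region from 147280001 to 148080000, with 37.3% for HCT116 and 13.1% for DKO1. At 60 to 70% progress most of it was replicated in 50 of 81 HCT116 cells (61.7%) and in 4 of 38 DKO1 cells (10.5%). The region from 134240001 to 135280000 had 41.3 and 21.3%, with 50% passed at a progress of 56.3% in HCT116 and 70.01% in DKO1. Beyond these, the named losses of the long arm lay mostly or wholly in early domains. They were from 208320001 to 209120000 (78.5 and 58.9%, all 10 bins early) and from 151920001 to 152640000 (68.7 and 47.1%, 6 of 8 bins early).

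The short arm held 2 lower regions, side by side in 1 early domain. The one from 36560001 to 37200000 had 84.4% for HCT116 and 63.0% for DKO1, and the one from 37440001 to 38320000 had 87.0 and 68.4%. Among the 20 regions named, 2 were smaller by more than 1.5 times in the almost fully called cells. The second of these short-arm regions differed by -6.72 points there, against -16.5 in all cells of the same strata, and the long-arm region from 208320001 by -8.38 against -19.7. The neighbour from 183520001 rested on the outer strata, with -10.3 points in all cells at 30 to 70% against -18.8 over all 6 strata. Matched by the progress of the arm itself, the higher regions from 16720001, 75440001, 30960001 and 21360001 differed by 16.0, 15.7, 12.2 and 10.9 points, and the lower regions from 203280001 and 183520001 by -11.9 and -10.3 points. Of the 19 lower regions, 9 had a share above 75% in HCT116, 6 passed from above 50% in HCT116 to below it in DKO1, and 18 were lower in DKO1 in each of the 6 strata. The other one, from 210640001 to 211200000 (51.8 and 31.8%), was lower in 5. The lower regions were chosen for their mean difference over these same strata, so the counts of strata are a description and no support. Of the 173 bins in lower regions 122 lay in early and 51 in late domains, where the chromosome has 1121 early and 1407 late bins. A bin with a very low share in HCT116 cannot be 15 points lower in DKO1. The rule itself therefore shapes this split, and its part was not tested.

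Most domain borders were found in both lines, and the step across them was shallower in DKO1. Of 64 borders 61 crossed 50% in both lines within 10 bins of the common border, and 28 of those crossings were at most 80 kb apart. The early side was shorter in DKO1 by more than 80 kb at 24 borders and longer at 9. By arm, it was shorter at 5 and longer at 6 of 21 borders on the short arm (median growth 41.7 kb), and shorter at 19 and longer at 3 of 40 on the long arm (median -72.6 kb). The largest growth, 552 kb, was at the start of the longest late domain of the short arm, next to 75680000, followed by 408 kb at 19760000. The largest retreat, -378 kb, was at 207280000, followed by -323 kb at 182160000. The borders at 75680000, 19760000 and 182160000 lie in regions given above and show the same differences again, and the border at 207280000 lies at the end of a further lower region, from 206800001 to 207280000 (67.8 and 47.6%).

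The step, the change in share from the 5th bin before to the 5th bin after a border, had a median of 58.3 points in HCT116 and 41.2 points in DKO1 and was smaller in DKO1 at 60 of 64 borders. On the short arm it was 71.3 and 55.6 points, and on the long arm 48.9 and 34.2 points. At 49 borders with 10 bins on each side and no missing bin, the mean share 760 kb into the late side was 17.5% in HCT116 and 22.5% in DKO1, and 520 kb into the early side it was 81.0 and 71.7%. At 120 kb on the late side the lines met, with 39.3 and 39.7%.

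**Figure D5:**
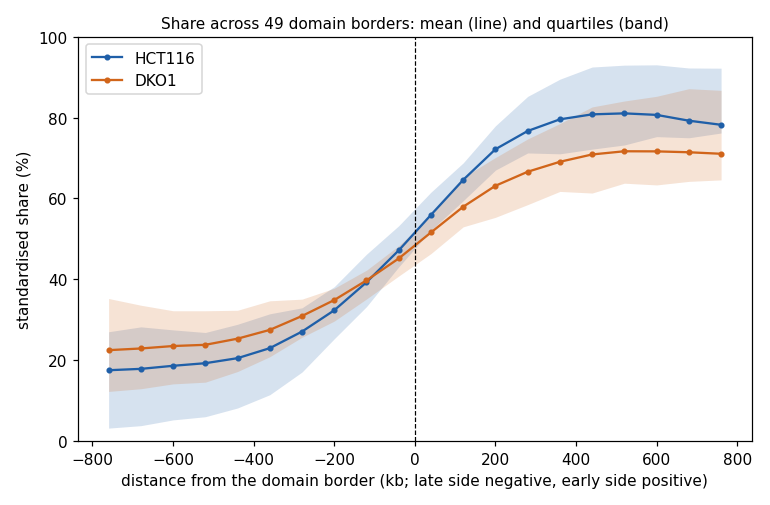
Mean standardised share (percent, lines) and quartiles (bands) across 49 domain borders of chromosome 2, against distance from the border in kb, late side to the left, for HCT116 and DKO1. HCT116 runs from 17.5% on the far late side to 81.0% at 520 kb on the early side, and DKO1 from 22.5 to 71.7%.

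The earliest bin was the same in both lines in 12 of 36 early domains. Its share had a median of 93.5% in HCT116 and 85.3% in DKO1. The latest bin was the same in 10 of 34 late domains, with median shares of 1.72 and 8.24%. On the long arm the earliest bins were further apart in share, 89.7 and 76.7%, than on the short arm, 97.6 and 93.6%.

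DKO1 cells were less alike along chromosome 2 than HCT116 cells. Pairs of mid-S cells within 5 points of progress of each other differed in 16.0% of the bins of the chromosome in HCT116 (138 cells, 4124 pairs) and in 22.9% in DKO1 (104 cells, 2329 pairs). The short arm had 12.9 and 21.2%, and the long arm 18.8 and 25.5%. In early domains the values were 14.8 and 24.4%, and in late domains 16.2 and 20.9%. By this measure, though not by the width below in HCT116, the long arm was the less uniform arm in both lines. The early domains showed the larger gap between lines. Of all bins of the chromosome, 21.3% in HCT116 and 32.1% in DKO1 were replicated in 20 to 80% of the mid-S cells.

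The replication width, the progress a bin takes to go from 25 to 75% of cells on a logistic curve, was 15.5 points for HCT116 and 19.9 for DKO1. On the short arm it was 15.5 and 19.0 points, and on the long arm 15.4 and 20.7 points. Read from the observed curve instead, it was 13.3 and 15.2 points. The state changed along the chromosome a median of 104.5 times in mid-S HCT116 cells (quartiles 94 and 114.75) and 99 times in DKO1 cells (quartiles 86.75 and 109), so the quartiles overlapped widely.

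By the median over domains, partial copying was more frequent in DKO1, though late domains were nearly evenly split. Early domains of the short arm were partly replicated, with 20 to 80% of their bins copied, in a median of 6.57% of mid-S cells in HCT116 and 16.2% in DKO1, and late ones in 9.56 and 17%. On the long arm the medians were 20.8 and 32.0% for early and 24.6 and 29.6% for late domains. The percent was higher in DKO1 in 27 of 36 early and in 19 of 34 late domains. Among late domains of the long arm it was higher in 12 of 23. The longest late domain was among those lower in DKO1, with 19.6% of HCT116 and 6.93% of DKO1 mid-S cells.

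Few cells carried a chromosome 2 that was out of step with the rest of their genome. The share of the chromosome was more than 15 points from the line's relation to progress on the other chromosomes in 4 of 321 HCT116 cells (1.25%, interval 0.341 to 3.16%). In DKO1 10 of 205 cells were of this kind (4.88%, 2.36 to 8.79%), and the intervals overlap. Both directions occurred, 2 above and 2 below in HCT116 and 4 above and 6 below in DKO1. These cells had much code 0 on the chromosome, between 4.66 and 48.6% of its bins in HCT116 and between 5.73 and 24.1% in DKO1, where the median of the other cells was 0%. In 6 of the 9 DKO1 cells of this kind with both arms called, the arms were more than 25 points apart. Without them the pair discordance was 14.9 and 20.8%, the width 14.9 and 18.1 points, and the arms differed by 4.57 and -2.28 points. Without the cells outlying on either arm (311 HCT116 and 185 DKO1 cells left) the arms differed by 3.96 and -1.70 points and the early domains by -3.52.

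Set against the other chromosomes with at least 100 bins, chromosome 2 was 16th of 21 in density of protein-coding genes and 15th in standardised share in both lines. Its median absolute difference between the lines, 6.67 points, was 5th of 21 (range 2.36 to 7.15). Its gap in pair discordance, 6.90 points, was also 5th (range 0.291 to 8.44). Its gap in width, 4.48 points, was 7th, where chromosomes ran from 0.953 to 7.32. These places are descriptions of 2 libraries and were not tested.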

How the data were processed

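The authors deposited state codes (0, 1 and 2) per 80 kb bin and S-phase cell, binarised calls of a hidden Markov model, per the table's name. Tools listed in the submitters' processing notes are bedtools 2.26.0, SAMtools 1.10 and Cell Ranger, and the builds listed are GRCh37 and hg19. Which software fitted the model is not given in the sources used here. Reads per cell are unknown, and with them the precision of a single call. The G1 libraries were not analysed here, nor was chromosome 2 between 220960000 and 240000001, where the table given has no bin.

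A bin was used when 90% or more of the cells had a call there, in each line (27142 bins, 98.0%). Arms were split at the gap between 92160000 and 95360001. The rule written first named the largest gap, which lies on the long arm and was not used. Domains were also split at gaps of 1 Mb or more. The named regions were the 10 of highest summed difference in each direction. On each arm the 3 earliest and 3 latest domains by the mean of both lines' shares, the longest of each kind and the 3 with the largest difference in each direction were named. The members, lists and rules were chosen with earlier results of these data known, and a list of genes was not run. Each line has 1 library, so no p-value is given. Python 3.11.15, numpy 2.4.6 and scipy 1.17.1 were used, and the functions were tested on simulated data.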

Additional observations from a re-analysis of the deposited data

Results flagged for a closer look

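Code 0, which the comparisons left out, took 3.42% of DKO1 calls on chromosome 2 against 0.874% of HCT116 calls. On the other chromosomes it was 2.74 and 1.099%. A run of at least 50 such bins occurred on chromosome 2 in 39 of 207 DKO1 cells (18.8%, exact interval 13.8 to 24.8%). In HCT116 it occurred in 10 of 322 cells (3.11%, with an upper bound of 5.64%), while 154 DKO1 and 292 HCT116 cells had no code 0 there. It was higher in DKO1 in 45 of 46 windows of 5 Mb. The largest excess was at 0 to 5 Mb, with 7.63% in DKO1 and 1.73% in HCT116, followed by 15 to 20 Mb with 6.70 and 1.85%, the window that holds the region of highest rank among those higher in DKO1. Late domains of the short arm had 4.69% in DKO1 and 1.49% in HCT116. The meaning of the code is not given in the sources used here.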

How the results depend on the processing

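Directions held under the alternatives for the arms, the early and late domains and the measures of cells, and the sizes below moved by more than 1.5 times or beyond counting error. The chromosome's mean difference stayed between -1.07 and 1.30 points with both signs. With code 0 as unreplicated the short arm differed by 1.73 points, the median switches by -3 and the outlying cells by 5.87 points. In the almost fully called cells, with code 0 in 1% of bins or fewer, the long arm differed by -0.697 and early domains by -1.40 points, 126 bins were lower, switches differed by -2 and outlying cells by 1.22 points. Without matching of progress the short arm differed by 2.24 and late domains by 2.19 points. Matched by the arm's own progress, early domains differed by -3.42 points. Without cells outlying on either arm they differed by -3.52 and the long arm by -1.70. At 10 points 407 bins were lower and 349 higher, in 52 regions, and at 20 points 95 and 67, in 15. Runs of at least 10 bins left 13 regions, and the observed curve a width gap of 1.95 points. The contrast of the arms, 6.33 points, ran from 4.24 to 6.85. Bins called in at least 99% of cells numbered 97 on the chromosome, too few, and were not run. The settings by the arm's own progress, with all cells at 30 to 70%, without cells outlying on either arm and with domains split at the centromere only were chosen after seeing the data. No paired analysis was possible because each line has 1 S-phase library. Strata under 30 and over 70% rest on 11 and 10 DKO1 cells.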

Other observations

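The departures of the 2 arms from their line's relation to progress went together only weakly across cells, with a Pearson correlation of 0.176 and a rank correlation of 0.200 in 318 HCT116 cells, and 0.268 and 0.367 in 200 DKO1 cells. The arms of a cell share its library and its estimate of progress, and these values are a description. In mid-S cells the gap between the arms had a median of 5.53 points in HCT116 (quartiles 2.04 and 8.60) and 10.3 points in DKO1 (quartiles 7.20 and 13.7), so the upper quartile of the parental line lay below the DKO1 median.

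Bins of early domains spread about as much in share on chromosome 2 in both lines (SD 13.9 points in HCT116 and 14.2 in DKO1), while bins of late domains spread less in DKO1 (15.6 and 13.1 points). Over the whole chromosome the SD was 35.4 points in HCT116 and 30.7 in DKO1.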
